A study of Mus musculus with 14 samples.

Results

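The stretch of mouse chromosome 14 described here reaches 10 Mb to each side of Atg14, the gene deleted in this study, and takes in the T cell receptor alpha locus. Its members are the 461 accessible regions, of 67254 in the deposited count table, that lie on chromosome 14 with a start between 37540893 and 57568434 as deposited (GRCm38). Bulk ATAC-seq, which reads out where a transposase can reach the DNA and gives more counts at more accessible regions, was carried out on Tregs sorted from the spleens of mixed BM chimeras. In these, CD45.2+ BM of Foxp3Cre Atg14fl/fl mice or of control Foxp3Cre Atg14+/fl mice was mixed in equal parts with wild-type CD45.1+ BM and grown for 6 to 8 weeks in sublethally irradiated Rag1-/- hosts. The mice were on the C57BL/6 background, and both sexes were used. The CD45.2+ Foxp3-YFP+ CD4 T cells were sorted, by CD44 and a further surface marker, as cTregs (CD44-) or eTregs (CD44+), which gave 3 control and 4 Atg14-deficient libraries of cTregs and 3 control and 4 Atg14-deficient libraries of eTregs. All groups carried the Foxp3 YFP-Cre, which drives deletion in Foxp3-expressing cells, and the control BM carried a floxed allele beside a wild-type one. The methods state that some Foxp3Cre Atg14fl/fl mice carried an Atg14+/- or Atg14-/- allele, with no notable difference in the phenotypes studied, and the labels do not say whether donors of these libraries did.

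Atg14 is a subunit of the class III PI3-kinase complex that starts autophagosome formation, the step by which a cell encloses its own components for breakdown in lysosomes. The T cell receptor alpha locus, on the telomere side of Atg14, is a long array of variable (Trav) segments, followed by the delta genes, the joining (Traj) segments and the constant gene Trac, with Dad1 beyond. In a developing T cell a variable segment is joined to a joining segment and the DNA between them is removed, so that a mature T cell has lost the delta genes and a part of the variable and joining segments on each rearranged chromosome. Counts over the locus therefore depend both on how many copies of a segment the cells still carry and on how open those copies are, and these cannot be told apart in these data. cTregs are the resting, lymph-node homing Tregs, and eTregs are the activated Tregs of tissues and inflamed sites.

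The sequences of 5 regions are printed because the results turn on them. They are the central 300 bases of each region on the plus strand of GRCm38, read from RefSeq's assembly. A promoter of Gmfb, ahead of an annotated start inside the gene, and the promoter of Pnp2 were the regions with the smallest p between genotypes, and they lie at chr14:46818755-46819054 and chr14:50956063-50956362. Capitals in them mark the AP-1 word TGANTCA, which occurred once in each. The promoter of the variable segment Trav13-5 (chr14:53795196-53795495) was lower in eTregs than in cTregs, and its capitals mark the bases that RefSeq places inside the gene. Of the next pair, which lies between Trac and Dad1, the first region (chr14:54225092-54225391) was called between states in Atg14-deficient libraries and not in controls, with an interaction that did not pass adjustment (adjusted p = 1), and held none of the words searched. The second region (chr14:54227397-54227696) lies where the enhancer of the T cell receptor alpha gene is known, and its capitals mark the CRE word TGACGTCA and, on the other strand, the RUNX word TGTGGTT.
Gmfb promoter: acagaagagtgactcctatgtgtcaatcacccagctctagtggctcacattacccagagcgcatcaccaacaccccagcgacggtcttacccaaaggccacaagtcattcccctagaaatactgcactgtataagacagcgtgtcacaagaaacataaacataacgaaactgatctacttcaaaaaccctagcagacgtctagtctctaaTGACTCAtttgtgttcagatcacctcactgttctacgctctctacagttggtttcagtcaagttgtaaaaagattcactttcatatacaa
Pnp2 promoter: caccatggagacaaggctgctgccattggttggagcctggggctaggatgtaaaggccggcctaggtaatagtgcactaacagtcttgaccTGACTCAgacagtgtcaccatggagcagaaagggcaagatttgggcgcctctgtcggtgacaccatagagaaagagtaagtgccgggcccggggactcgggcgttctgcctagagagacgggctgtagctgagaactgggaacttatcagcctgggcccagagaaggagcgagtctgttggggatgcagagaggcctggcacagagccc
Trav13-5 promoter: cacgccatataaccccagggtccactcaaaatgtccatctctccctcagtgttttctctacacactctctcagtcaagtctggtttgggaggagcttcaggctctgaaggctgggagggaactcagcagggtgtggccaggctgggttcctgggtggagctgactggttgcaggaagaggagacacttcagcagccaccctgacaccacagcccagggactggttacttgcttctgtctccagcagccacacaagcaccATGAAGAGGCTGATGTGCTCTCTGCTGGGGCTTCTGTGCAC
Trac to Dad1, first region: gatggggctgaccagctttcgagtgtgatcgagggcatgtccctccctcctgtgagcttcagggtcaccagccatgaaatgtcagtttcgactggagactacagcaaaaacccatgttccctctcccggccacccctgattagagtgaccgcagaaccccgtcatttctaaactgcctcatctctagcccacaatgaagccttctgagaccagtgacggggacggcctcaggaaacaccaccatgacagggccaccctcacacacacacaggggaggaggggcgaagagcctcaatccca
Trac to Dad1, second region: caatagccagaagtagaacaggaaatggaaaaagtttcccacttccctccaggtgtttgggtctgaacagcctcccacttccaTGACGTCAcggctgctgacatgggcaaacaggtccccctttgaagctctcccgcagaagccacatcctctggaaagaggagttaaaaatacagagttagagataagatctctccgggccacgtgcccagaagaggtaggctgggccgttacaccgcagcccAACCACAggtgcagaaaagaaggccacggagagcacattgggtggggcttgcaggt

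Total counts were between 2242983 and 5548189 per library, and the stretch took 0.701% to 0.768% of them. Of the 461 regions, 422 had enough counts for edgeR's filter and were tested among 61366 regions of the genome. The regions were 90.0 to 1799 bp long with a median of 322 bp, against 325 bp over all regions, and their mean level ran from 0.282 to 242 CPM (counts scaled to a library total of 1000000), with a median of 5.59 CPM. By RefSeq's annotation 151 overlapped a promoter (500 bp before to 100 bp after a transcription start), 113 lay in introns, 160 were intergenic, and the rest lay in exons. Defining genes of the sorts were followed in part. The regions of Foxp3, Il2ra, Ikzf2 and Ctla4 were open in all groups, while the promoter of Ccr7, a chemokine receptor of resting T cells, was lower in eTregs (30.2 and 11.1 CPM in control cTregs and eTregs, 37.3 and 19.5 CPM in Atg14-deficient ones), as was that of Tcf7. The promoter of Lef1, also of resting T cells, differed little, at 49.3 and 42.5 CPM in controls and 46.5 and 48.6 CPM in Atg14-deficient libraries. Of the eTreg markers, Klrg1 and Itgae had higher means in eTregs, the promoter of Prdm1 was nearly level (58.2 and 61.1 CPM in controls), and that of Icos went against its label with 31.9 CPM in control cTregs and 19.8 CPM in control eTregs. Among genes of other cell types, Ms4a1 of B cells and Lyz2 and Csf1r of myeloid cells had no region in the table, but others had counts. Group means were 2.54 to 5.05 CPM near Cd79a of B cells, 3.86 to 5.17 CPM near Cd14 and 4.14 to 7.60 CPM near Itgam of myeloid cells, 0.964 to 3.31 CPM at the promoter of Klrb1c and 3.31 to 4.26 CPM near Ncr1 of NK cells. Their part in the results was not tested.

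The first question was whether accessibility around Atg14 differed between Atg14-deficient and control Tregs of the same state. A region was called, with the cutoffs of the study, at a log2 fold change beyond 0.5 and an unadjusted p below 0.05 in edgeR's quasi-likelihood test. Genotype calls below are of this kind, and a call is said to be lost where a fit without a library no longer met both cutoffs. In eTregs, 25 of the 422 tested regions were higher in the Atg14-deficient libraries (5.92%, background over the genome 4.59%) and 12 were lower (2.84%, background 1.77%). The split depended on the scaling, since TMM gave 21 higher and 16 lower and loess offsets gave 18 and 18. In cTregs, 14 regions were higher (3.32%, background 1.99%) and 12 were lower (2.84%, background 1.35%). After Benjamini-Hochberg adjustment over the genome, no region of the stretch passed in eTregs (background 0.0228%), where 37 passed unadjusted, and the Pnp2 promoter alone passed in cTregs (background 0.0163%). These adjusted calls moved with the fit, as given for the promoters of Gmfb and Pnp2 below. Chromosome 14 outside the stretch had 4.29% higher and 2.58% lower in eTregs, and 2.58% higher and 1.81% lower in cTregs.

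The regions that were lower in Atg14-deficient Tregs lay mostly within 5 Mb of the gene. There, 10 of 199 tested regions were lower in eTregs and 10 of 199 in cTregs (5.03% in each), against 2 of 223 beyond 5 Mb (0.897% in each). The backgrounds for lower calls were 1.77% in eTregs and 1.35% in cTregs. The higher regions had the other distribution in eTregs, with 8 of 199 within 5 Mb (4.02%) and 17 of 223 beyond (7.62%, background 4.59%). In cTregs they were 3 of 199 (1.51%) and 11 of 223 (4.93%, background 1.99%). Within 5 Mb the higher shares thus lay near the background. The receptor locus, which lies for the most part beyond 5 Mb, held 8 of all 25 higher calls in eTregs and 6 of all 14 in cTregs. The median log2 fold change within 5 Mb was -0.04 in eTregs and -0.07 in cTregs, whereas beyond 5 Mb it was 0.21 and 0.09, beside medians over all tested regions of 0.06 and 0.03. The plot of genotype differences by position shows the lower calls around Atg14 and a broad shift upwards on the far telomere side.

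**Figure D1:**
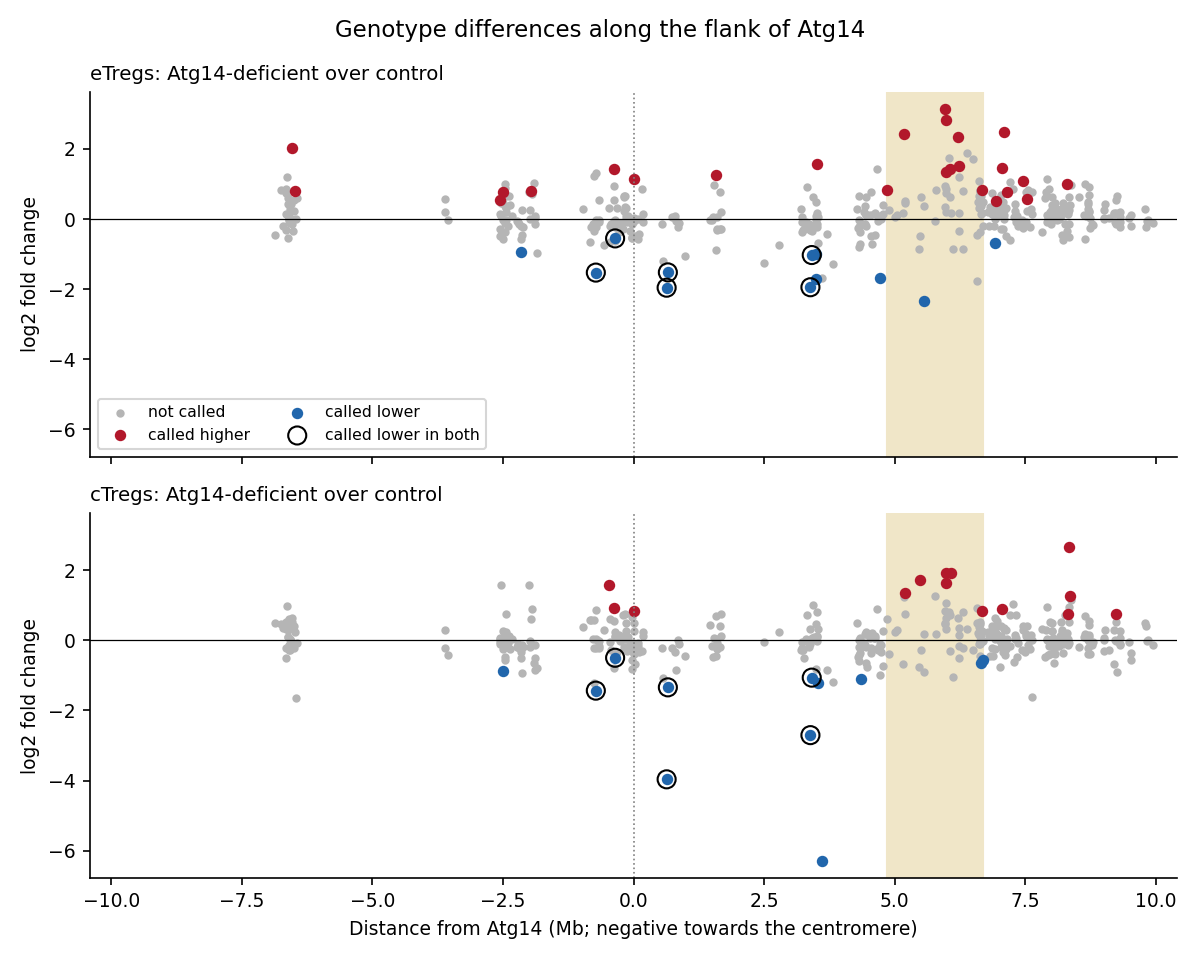
Log2 fold change of Atg14-deficient over control libraries for the 422 tested regions against distance from Atg14 in Mb (dotted line; negative towards the centromere), in eTregs (top) and cTregs (bottom). Coloured points passed unadjusted p with a log2 fold change beyond 0.5, circles mark the 6 regions lower in both populations, and the shaded band is the T cell receptor alpha locus, where most points of the upper panel lie above 0.

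By distance, the 17 tested regions within 1 Mb on the telomere side had medians of -0.14 in eTregs and -0.31 in cTregs, and 15 of the 17 were below 0 in cTregs. On the centromere side within 1 Mb, the medians over 50 regions were -0.09 and 0.02. From 5 to 10 Mb on the telomere side, 146 of 195 tested regions were above 0 in eTregs (median 0.21) and 112 of 195 in cTregs (median 0.07). The counts of all 212 regions of that class, tested or not, summed to 2427 to 2610 CPM in control eTregs and 2640 to 3065 CPM in Atg14-deficient eTregs, so that the groups did not overlap. In cTregs the same sums were 2430 to 2527 and 2513 to 2554 CPM and overlapped. From 1 to 5 Mb on the telomere side the sums of 91 regions went the other way in cTregs, at 2214 to 2260 CPM in controls and 2024 to 2180 CPM in Atg14-deficient libraries, while in eTregs they overlapped (1988 to 2174 and 1887 to 2007 CPM). The sums of the other classes overlapped between genotypes in both states. Over the genome, of 522 bins of 5 Mb, 3.83% were higher and 11.3% lower without overlap in Atg14-deficient eTregs, and 1.72% higher and 2.68% lower in cTregs. Of the 17 bins of 1 Mb in the stretch, 2 were higher and 2 lower without overlap in Atg14-deficient eTregs and 1 was lower in cTregs. Over the 1988 bins of 1 Mb in the genome with at least 3 regions, the shares were 5.53% and 9.15% in eTregs, and 3.12% were lower in cTregs. The bin that starts at 50 Mb was lower in both states, as were 16 bins over the genome with it (0.805%), and is described for that reason. It holds Pnp, Pnp2 and Tep1, and 2 of the regions called lower in both populations are among its 21 regions. Control eTregs had 553 to 592 CPM there and Atg14-deficient eTregs 459 to 525 CPM, and control cTregs had 621 to 688 CPM against 524 to 603 CPM. Summed over the whole stretch, counts were 0.744% ± 0.0225 (SD, n = 3) of the library in control cTregs, 0.726% ± 0.0146 (n = 4) in Atg14-deficient cTregs, 0.714% ± 0.0109 (n = 3) in control eTregs and 0.724% ± 0.00696 (n = 4) in Atg14-deficient eTregs. The genotypes overlapped in both states on this measure.

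The states shared a part of the lower calls. Called lower in both populations were 6 regions, which is 50.0% of the 12 of each state (background over the genome 0.156% of tested regions). Over the genome, 96 regions were lower in both, 8.86% of the eTreg list and 11.6% of the cTreg list. The 6 regions lie from -0.722 to 3.41 Mb from Atg14, a span with 92 tested regions. They are a promoter of Gmfb, that of Pnp2, an intron of Gch1, a pair of introns of Peli2 and an intergenic region past Pnp2. Without control eTreg replicate 1, control eTreg replicate 3 or Atg14-deficient eTreg replicate 4, the count was 3. The eTreg and cTreg comparisons used different libraries, although same-numbered libraries of the 2 states deviated together in both genotypes. Their correlations were 0.119 to 0.243 in Atg14-deficient and 0.0543 to 0.209 in control libraries.

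Gmfb encodes a factor that prunes branched actin filaments, and its inner promoter (chr14:46818734-46819075) was lower in the Atg14-deficient libraries of both states. Control eTregs had 17.6, 22.0 and 20.7 CPM, and Atg14-deficient eTregs had 5.99, 9.20, 7.41 and 5.65 CPM. Control cTregs had 18.6, 24.2 and 14.3 CPM, and Atg14-deficient cTregs had 12.6, 3.89, 5.26 and 7.07 CPM. Every Atg14-deficient library lay below every control library of its state. The log2 fold change was -1.53 ± 0.31 (SE) in eTregs (adjusted p = 0.093) and -1.44 ± 0.32 in cTregs (adjusted p = 0.275). The unadjusted call held without each library in turn. The adjusted p was below 0.05 in 2 of 8 other settings in eTregs (0.00323 to 0.167) and in 0 of 7 fits with a library left out (0.0644 to 0.328), and in cTregs in 1 of 8 settings (0.0348 to 0.71) and 1 of 7 fits (0.0361 to 1). The promoter at the other annotated start of Gmfb (chr14:46821977-46822437) did not show this, with 46.1 ± 7.26 CPM in the eTregs of controls (SD, n = 3) and 39.5 ± 5.26 CPM in those of Atg14-deficient donors (n = 4; log2 fold change -0.22 ± 0.17), and 0.02 ± 0.17 in cTregs.

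Pnp2 encodes a purine nucleoside phosphorylase, an enzyme of nucleoside salvage, and lies beside its near-identical tandem copy Pnp, so that reads could be split between the copies where their sequences match. At the Pnp2 promoter (chr14:50955912-50956512) control cTregs had 8.80, 13.2 and 12.5 CPM, and Atg14-deficient cTregs had 2.52, 1.56, 0.526 and 2.57 CPM. Control eTregs had 17.6, 13.1 and 18.7 CPM, against 8.39, 4.18, 2.65 and 2.05 CPM in Atg14-deficient eTregs. Again no library of one genotype lay among those of the other. The log2 fold change was -2.71 ± 0.46 in cTregs (adjusted p = 0.0157) and -1.94 ± 0.40 in eTregs (adjusted p = 0.093). In cTregs the adjusted p stayed below 0.05 in 6 of 7 other settings (0.000304 to 0.0811), but in only 2 of the 7 fits with a library left out (0.0276 to 0.165). In eTregs it was below 0.05 in 2 of 7 other settings (0.00858 to 0.148) and in 1 of the 7 fits (0.0105 to 0.566). The promoter of Pnp (chr14:50944173-50944936) was at 80.1 ± 2.89 CPM (SD, n = 3) in eTregs of controls and at 67.3 ± 10.8 CPM (n = 4) in those lacking Atg14, which differ by -0.26 ± 0.14 (SE) on the log2 scale. In cTregs it had 69.6 ± 9.45 and 64.9 ± 10.3 CPM, and neither comparison passed. The intergenic region 25182 bp past the start of Pnp2 (chr14:50981214-50981738) was lower by -1.03 ± 0.42 in eTregs and -1.07 ± 0.40 in cTregs, on the log2 scale. Its call was lost in cTregs without control replicate 1 (-0.87) and in eTregs without control replicate 3 (-0.65), Atg14-deficient replicate 1 (-0.90) or Atg14-deficient replicate 4 (-0.81).

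The region in an intron of Peli2, a ubiquitin ligase of Toll-like and interleukin-1 receptor signalling, at chr14:48202419-48202737 was close to empty in Atg14-deficient cTregs. It had 14, 16 and 4 counts in the control cTreg libraries, and 0, 0, 2 and 0 in the Atg14-deficient ones. In eTregs the counts were 26, 12 and 11 in controls and 4, 2, 5 and 4 in Atg14-deficient libraries. The groups did not overlap in CPM in either state (log2 fold change -3.97 ± 0.96 in cTregs and -1.96 ± 0.72 in eTregs). In eTregs the call was lost without control replicate 1 (-1.17) and with the replicate number as a block (-1.71). A further region of Peli2, at chr14:48225970-48226604 and named after its values were seen, changed by -1.52 ± 0.62 (eTregs) and -1.34 ± 0.57 (cTregs) on the log2 scale, with overlapping groups. That call was lost in eTregs without control replicate 1 or 3 or Atg14-deficient replicate 3 or 4 (-1.43 to -1.16), and in cTregs without control replicate 3 or Atg14-deficient replicate 3 or 4 (-1.16 to -1.04). An intron of Gch1, whose enzyme takes the first step of tetrahydrobiopterin synthesis, had 26.3, 21.8 and 27.6 CPM in control eTregs and 17.4, 18.8, 19.6 and 13.4 CPM in Atg14-deficient eTregs (chr14:47187940-47188330), which did not overlap. In cTregs the groups overlapped, with 26.6, 21.1 and 37.5 CPM in controls and 12.6, 23.0, 21.8 and 21.2 CPM in Atg14-deficient libraries. Its log2 fold change was -0.55 ± 0.24 in eTregs and -0.50 ± 0.24 in cTregs. The eTreg call was lost without control replicate 1 (-0.52), control replicate 3 (-0.48) or Atg14-deficient replicate 4 (-0.44). The cTreg call was lost without control replicate 1 (-0.54), control replicate 3 (-0.27) or Atg14-deficient replicate 1 (-0.35), and with the replicate block (-0.46).

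Other lower calls were made in a single state. An intron of Gnpnat1, an enzyme of the hexosamine pathway, was lower in Atg14-deficient eTregs by -0.93 ± 0.25 on the log2 scale (adjusted p = 0.31), with 25.7, 16.8 and 18.7 CPM in controls and 11.99, 13.4, 7.41 and 10.3 CPM in Atg14-deficient libraries (chr14:45387464-45387837). In cTregs its change was -0.33 ± 0.25, and the difference between states was not past the threshold (interaction -0.60 ± 0.36, adjusted p = 1). The secreted ribonucleases, a tandem family whose near-identical copies make the assignment of reads uncertain, had 3 lower calls in cTregs. Without control cTreg replicate 1, those near Rnase4 (-0.88) and Rnase13 (-1.05) were lost, and the latter also without control cTreg replicate 3 (-1.07) or Atg14-deficient cTreg replicate 1 (-0.87) or 3 (-1.01). The intergenic region nearest Rnase2b (chr14:51176317-51176576) had 12, 15 and 4 counts in control cTregs and 0 in all 4 Atg14-deficient cTreg libraries, which is at least 11-fold lower against a floor of 3 counts over the group. In eTregs it had 8, 10 and 22 counts in controls and 0, 6, 2 and 4 in Atg14-deficient libraries and was not called (-1.68 ± 0.83). The interaction was past the unadjusted threshold and not past adjustment (adjusted p = 1), and its size is not given because 1 group is at 0. Near Ptger2, the prostaglandin E2 receptor EP2, the intergenic region at chr14:45038034-45038388 was lower in cTregs only by its own test (log2 fold change -0.86 ± 0.31, against -0.02 ± 0.29 in eTregs), and the difference of 0.85 ± 0.42 between the states was not called. The promoter shared by Dad1 and Abhd4 (chr14:54253729-54254271) was lower in Atg14-deficient cTregs (-0.57 ± 0.14), and fell just short of the fold cutoff without Atg14-deficient cTreg replicate 2 (-0.50). In eTregs the change had the same sign (-0.19 ± 0.14), with 56.6, 55.6 and 56.6 CPM in controls all above the 46.7 to 52.7 CPM of the Atg14-deficient libraries, and the interaction of 0.37 ± 0.20 was not called.

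Called higher in both populations were 3 regions (background 0.306%), and all lay more than 5 Mb to the telomere side. An intron of Dad1, a subunit of the enzyme that attaches glycans to new proteins, had 7.16, 12.1 and 10.6 CPM in control eTregs and 15.6, 15.1, 17.5 and 22.6 CPM in Atg14-deficient eTregs (chr14:54239021-54239402). In cTregs it had 14.2, 11.97 and 4.46 CPM in controls and 26.0, 15.6, 19.98 and 14.8 CPM in Atg14-deficient libraries. The Atg14-deficient libraries lay above the controls in both states (0.82 ± 0.31 in eTregs and 0.84 ± 0.31 in cTregs). The calls were lost without control eTreg replicate 1 (0.65) and control cTreg replicate 3 (0.54). The intergenic region 4708 bp past the start of Psmb11, a proteasome subunit of the thymic epithelium, rose by 1.46 ± 0.43 in eTregs from 1.95, 2.62 and 1.80 CPM to 7.19, 4.18, 4.76 and 7.19 CPM (chr14:54629807-54630230). In cTregs its change was 0.89 ± 0.39, and the call was lost without control replicate 1 (0.61), control replicate 2 (0.84), Atg14-deficient replicate 1 (0.78) or Atg14-deficient replicate 4 (0.82), and with the replicate block (0.78). The third lies among the variable segments, near Trav15-1-dv6-1.

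Atg14 itself held 4 regions, and none of its regions passed in both states. The promoter (chr14:47567952-47568659) had 22.5, 27.8 and 35.2 CPM in control cTregs and 24.4, 25.7, 16.8 and 20.2 CPM in Atg14-deficient cTregs. In eTregs it had 19.8, 21.5 and 31.2 CPM in controls and 22.2, 20.9, 26.7 and 29.3 CPM in Atg14-deficient libraries. The genotypes overlapped in both states (log2 fold change 0.03 ± 0.22 in eTregs and -0.38 ± 0.23 in cTregs), and the sign in eTregs turned with TMM (-0.03), DESeq2 size factors (-0.01) and loess offsets (-0.01), and without control eTreg replicate 1 or 2 or Atg14-deficient eTreg replicate 3 or 4. A region in an intron (chr14:47545786-47546239) was higher in Atg14-deficient eTregs, with 8.39, 15.1, 11.4 and 7.19 CPM against 3.90, 6.56 and 3.60 CPM in controls (1.15 ± 0.37, adjusted p = 0.428). Another intronic region (chr14:47551355-47551722) was higher in Atg14-deficient cTregs, with 14.3, 10.9, 9.99 and 6.42 CPM against 5.87, 5.27 and 6.24 CPM (0.84 ± 0.33, adjusted p = 1). That call was lost without control cTreg replicate 2 (0.77) or Atg14-deficient cTreg replicate 1 (0.66). The last region, in the 3' UTR exon at chr14:47541186-47542012, was not called (-0.04 ± 0.19 in eTregs and 0.26 ± 0.20 in cTregs). The deposited counts cover accessible regions only, and whether any of these regions lies in the deleted part of the gene is not given in the sources used here.

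**Figure D2:**
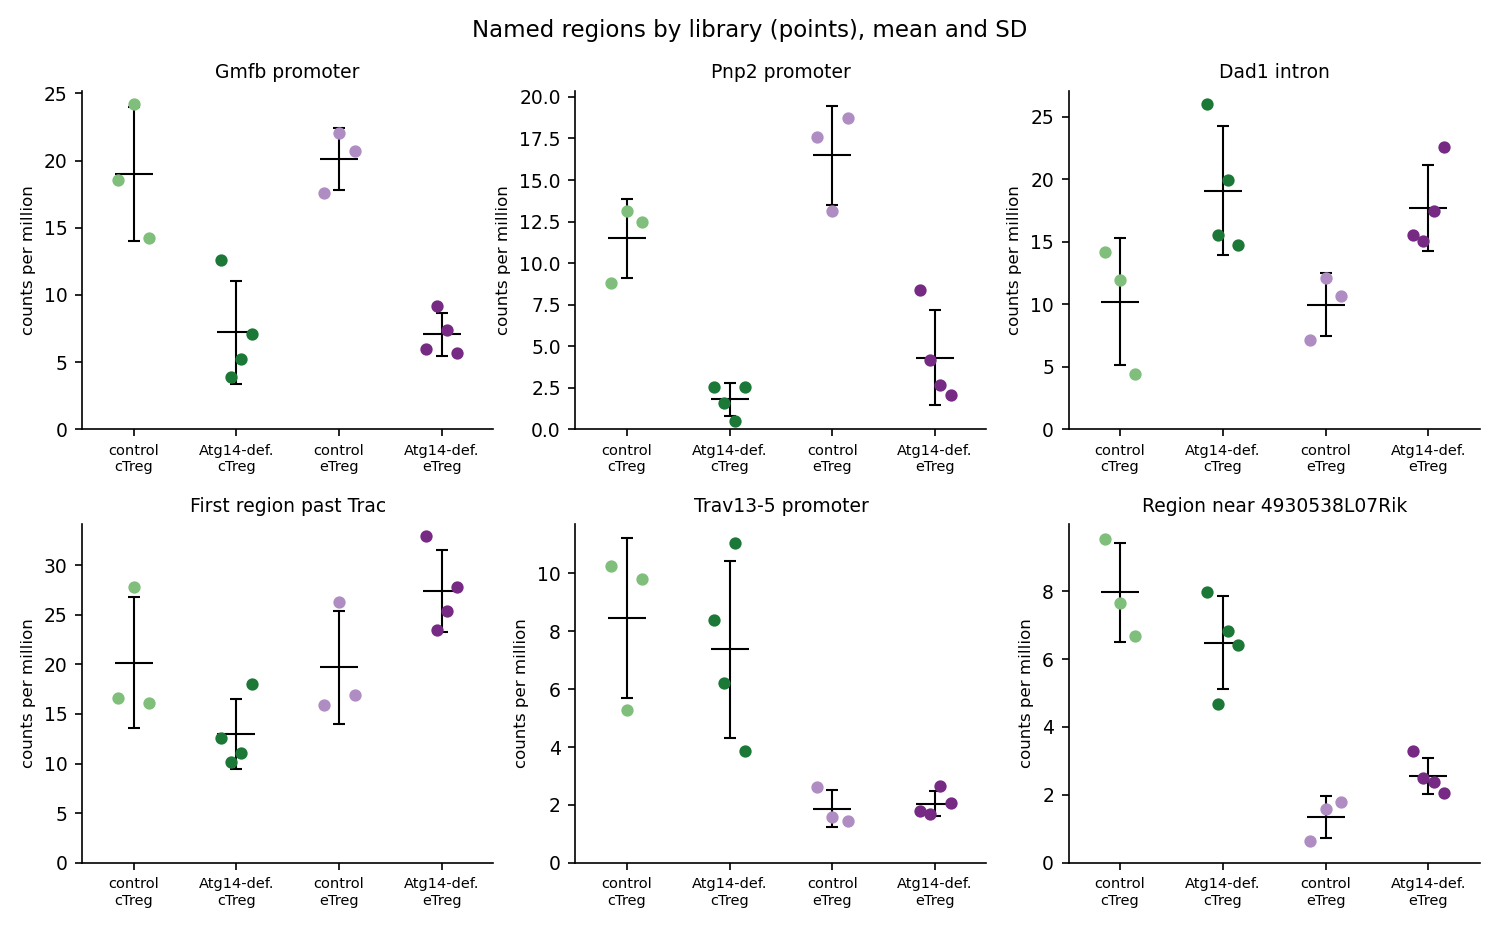
Level of 6 regions in each of the 14 libraries, as CPM on linear axes that start at 0; points are libraries, and the ticks with bars are group means and SDs. The Gmfb and Pnp2 promoters are lower in all Atg14-deficient libraries, the Dad1 intron is higher in them, and the Trav13-5 promoter and the region near 4930538L07Rik are lower in eTregs of both genotypes.

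The second question was how the stretch differed between the states. A state region was called where the log2 fold change went beyond 0.5 and the adjusted p lay below 0.05. State calls, errors and p-values come from the fit without pairing, unless a block is named. In control libraries, 4 of 422 regions were higher in eTregs (background 2.01%) and 12 were lower (background 3.29%). In Atg14-deficient libraries, 13 were higher in eTregs (background 4.41%) and 20 were lower (background 5.4%). With the replicate number as a block within genotype, same-numbered cTreg and eTreg libraries are paired. The counts of the Atg14-deficient libraries were then 22 higher and 27 lower (background 15.5% in either direction). The control count of 16 (background 5.3% in either direction) was 28 with the DESeq2 Wald test (7 higher and 21 lower, background 6.82%). It was 35 with that block (14 higher and 21 lower, background 10.4%), and the split was 6 higher and 11 lower with DESeq2's size factors. The control count moved with each library left out, and so did the share over the genome. It was 3, 25 and 8 without cTreg replicate 1, 2 or 3 (background 1.75%, 5.92% and 2.44%). Without eTreg replicate 1, 2 or 3 it was 4, 4 and 7 (background 2.12%, 2.69% and 3.51%). For the Atg14-deficient libraries the count of 33 (background 9.81%) was 11 without cTreg replicate 3 (background 4.62%). It was 20 without eTreg replicate 1 (6.1%) and 16 without eTreg replicate 4 (5.79%). The median log2 fold change of eTregs over cTregs was -0.10 in controls and -0.05 in Atg14-deficient libraries, against -0.01 and 0.02 over all tested regions.

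**Figure D3:**
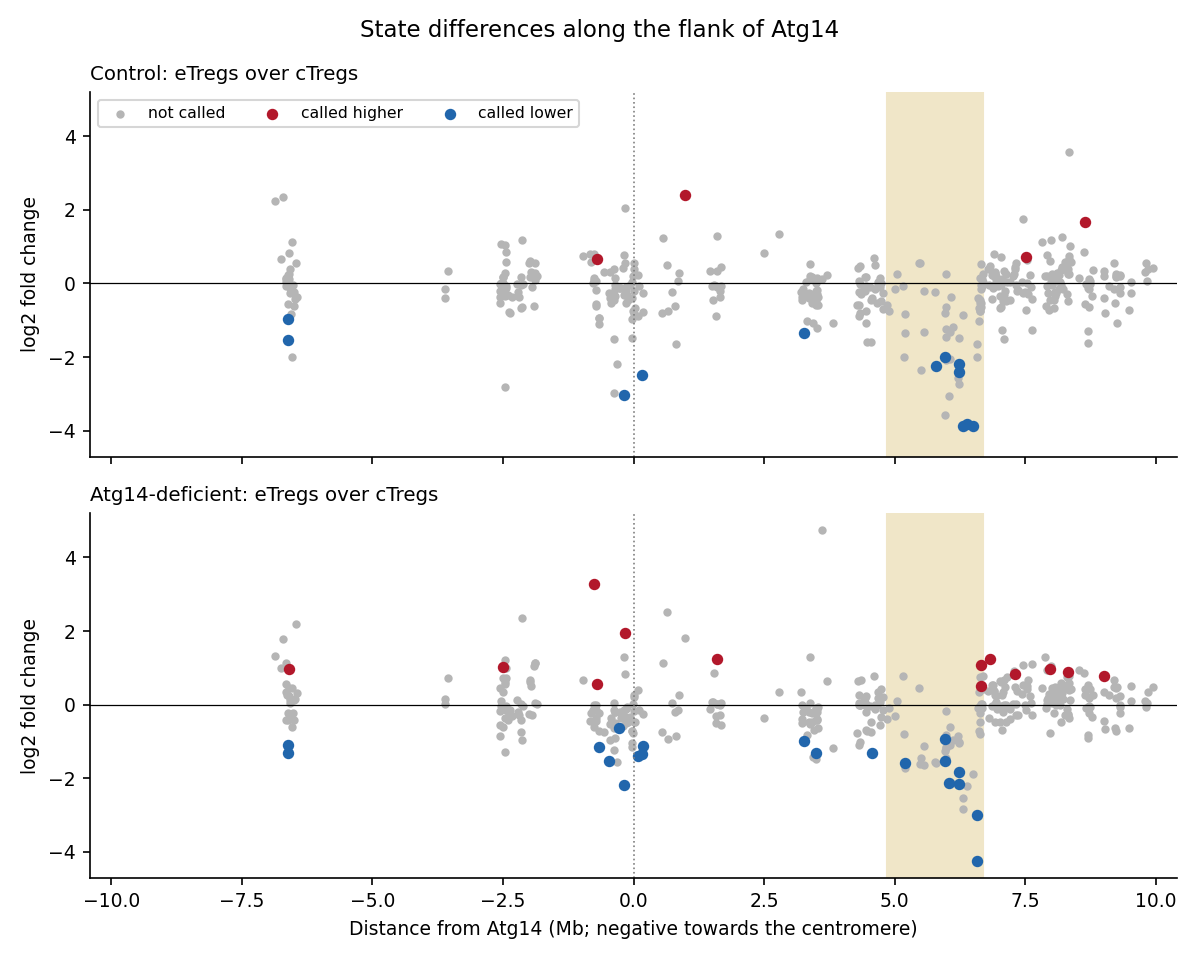
Log2 fold change of eTregs over cTregs for the 422 tested regions against distance from Atg14 in Mb (dotted line; negative towards the centromere), in control (top) and Atg14-deficient (bottom) libraries. Coloured points passed adjusted p with a log2 fold change beyond 0.5; the shaded band is the T cell receptor alpha locus, where 7 of the 12 lower calls of controls and 8 of the 20 of Atg14-deficient libraries lie.

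The T cell receptor alpha locus held 7 of the 16 state calls of controls and 10 of the 33 of Atg14-deficient libraries. Of its 64 regions 54 were tested. In control libraries 7 of these were lower in eTregs (background 3.29%) and 0 were higher (2.01%), and in Atg14-deficient libraries 8 were lower (5.4%) and 2 were higher (4.41%). Outside the locus, 5 of 368 tested regions were lower in eTregs in controls and 12 of 368 in Atg14-deficient libraries. The median log2 change over the tested regions of the locus was -0.81 in controls and -0.96 in Atg14-deficient libraries, against -0.05 and -0.01 in the rest of the stretch. Of the variable segments, 31 of 35 tested regions were below 0 in controls and 32 of 35 in Atg14-deficient libraries, with medians of -1.32 and -1.18. Since regions that passed the filter through a single group had to differ, sums over all members, tested or not, are given next.

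The 44 regions of the variable part (chr14:52427967-53977678) summed to 137 to 181 CPM in control cTregs and 70.9 to 85.6 CPM in control eTregs. In Atg14-deficient libraries the sums were 168 to 244 CPM in cTregs and 91.4 to 112 CPM in eTregs. The states did not overlap in either genotype, with means of 165 ± 24.3 (SD, n = 3) and 78.6 ± 7.37 CPM (n = 3) in controls and 207 ± 33.5 (n = 4) and 102 ± 9.17 CPM (n = 4) in Atg14-deficient libraries. The genotypes did not overlap in eTregs, where the Atg14-deficient libraries were higher, and overlapped in cTregs. In steps of 500 kb along the array, the median log2 changes in controls were -0.75 and -0.23 over the 7 tested regions of each of the first steps and -1.74 over the 20 tested regions of the third, and the 1 tested region of the short last step changed by -3.81. In Atg14-deficient libraries the same medians were -0.32, -1.56 and -1.17, and the last region changed by -2.22, and whether the steps differ between genotypes was not tested. The 25 promoter regions among them summed to 98.0 ± 13.0 CPM in control cTregs and 46.1 ± 1.44 CPM in control eTregs, and the 19 other regions to 67.3 ± 13.8 and 32.5 ± 8.23 CPM. The promoter of Cd8b1, a marker of CD8 T cells, moved in the same direction, with 16.1 and 16.3 CPM in control and Atg14-deficient cTregs and 4.35 and 4.94 CPM in the eTregs. Near Cd8a, the other gene of that list, the means were 3.49 and 9.63 CPM in cTregs and 2.92 and 4.26 CPM in eTregs. Their part in the result was not tested.

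The delta genes (chr14:53977679-54149201), which are cut out when the alpha locus rearranges, held 3 regions at low levels. They summed to 9.76 ± 4.11 CPM in control cTregs and 1.36 ± 0.600 CPM in control eTregs, and to 9.62 ± 1.08 and 1.92 ± 1.06 CPM in Atg14-deficient cTregs and eTregs. The 12 regions of the joining segments and Trac (chr14:54149202-54224198) had 95.0 ± 12.9 CPM in control cTregs and 99.2 ± 13.5 CPM in control eTregs, and 106 ± 9.98 and 120 ± 14.1 CPM in Atg14-deficient libraries. The 5 regions from Trac to Dad1 (chr14:54224199-54253929) had 136 ± 15.7 and 125 ± 18.3 CPM in controls and 153 ± 21.3 and 165 ± 15.1 CPM in Atg14-deficient libraries. The state groups overlapped beyond the delta genes, and were apart in the variable and delta parts.

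**Figure D4:**
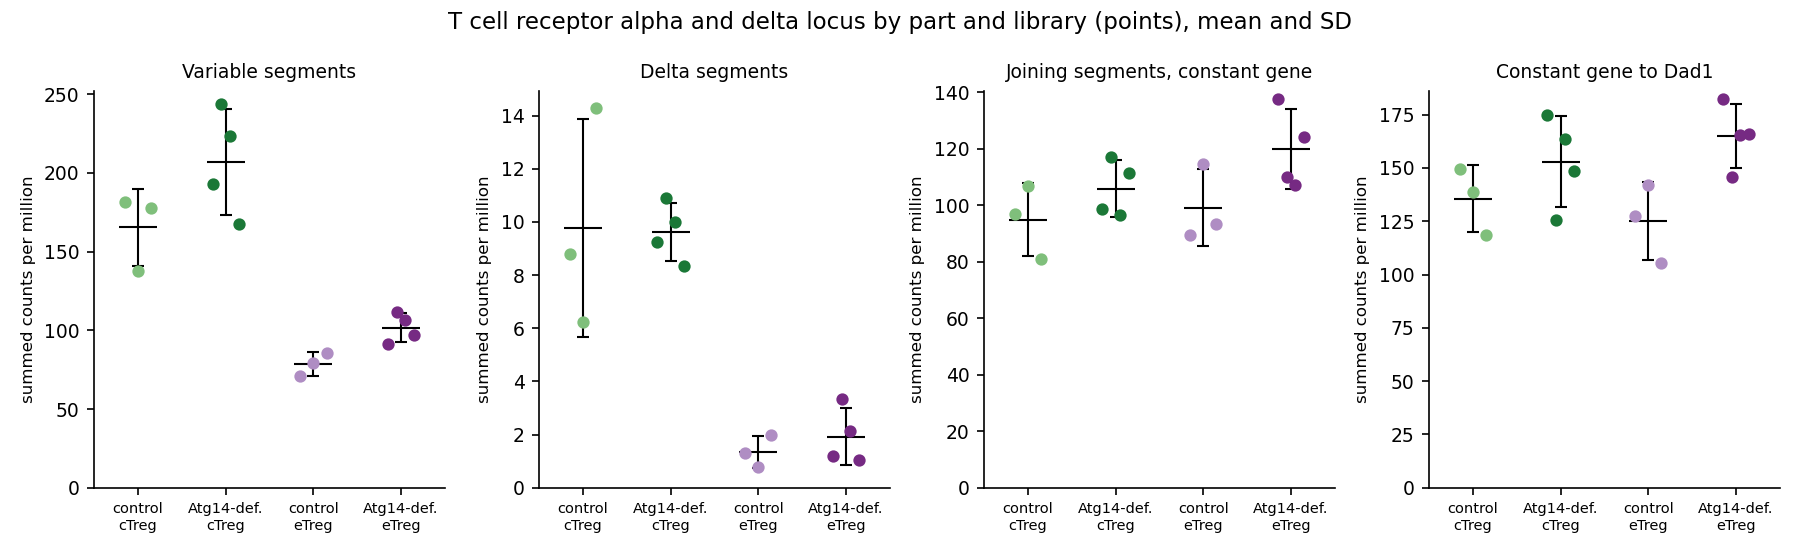
Sum of CPM over all regions of 4 parts of the T cell receptor alpha locus in each of the 14 libraries, on linear axes that start at 0; points are libraries, and the ticks with bars are group means and SDs. In the variable part the cTreg libraries (137 to 244 CPM) lie above the eTreg libraries (70.9 to 112 CPM), while from the joining segments on the states overlap.

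At the promoter of Trav13-5 (chr14:53795181-53795509), printed above, control cTregs had 10.3, 5.27 and 9.81 CPM and control eTregs 2.60, 1.57 and 1.44 CPM. Atg14-deficient cTregs had 8.40, 6.23, 11.04 and 3.85 CPM, and Atg14-deficient eTregs 1.80, 1.67, 2.65 and 2.05 CPM. The states did not overlap (log2 fold change -2.18 ± 0.49, adjusted p = 0.00809 in controls; -1.82 ± 0.43, adjusted p = 0.00737 in Atg14-deficient libraries). The calls were lost without control cTreg replicate 1 (adjusted p = 0.06) and Atg14-deficient cTreg replicate 3 (adjusted p = 0.0544). The region before Trav17 (chr14:53802520-53802902) had 8.31, 3.35 and 9.81 CPM in control cTregs and 0.651, 2.10 and 1.08 CPM in control eTregs (-2.41 ± 0.55, adjusted p = 0.00972). It was the one region called both lower in control eTregs and higher in Atg14-deficient eTregs among those named, with 2.70, 5.86, 3.97 and 2.83 CPM in the latter (1.52 ± 0.55, adjusted p = 0.488). Its state call was lost without control cTreg replicate 1 (adjusted p = 0.0585) or control eTreg replicate 1 (adjusted p = 0.0577). Near Trdv4 of the delta genes (chr14:54059834-54060117) the counts were 16, 12 and 14 in control cTregs and 2, 1 and 0 in control eTregs (-3.88 ± 0.90, adjusted p = 0.0102), a call lost without control eTreg replicate 3 (adjusted p = 0.052). Near Trdv5 (chr14:54147593-54147843) the Atg14-deficient libraries had 10, 8, 16 and 8 counts in cTregs and 2, 0, 0 and 0 in eTregs (-4.26 ± 1.02, adjusted p = 0.00828).

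Between genotypes, the variable part leaned upwards in the Atg14-deficient libraries. In eTregs 7 of its 35 tested regions were called higher (background 4.59%) and 1 lower (1.77%), with 28 above 0 and a median of 0.51. In cTregs 5 were higher (background 1.99%) and 0 lower (1.35%), with 25 above 0 and a median of 0.34. The direction of these medians held under every scaling, test and left-out library tried (0.39 to 0.63 in eTregs, 0.22 to 0.49 in cTregs). Other parts of the locus leaned the same way in eTregs, with medians of 0.57 over the joining segments and Trac and 0.44 from Trac to Dad1. The sums of the latter part were 106 to 142 CPM in control and 146 to 182 CPM in Atg14-deficient eTregs. The delta part, with 2 tested regions, had a median of -0.03. In cTregs the 3 medians were 0.15, 0.23 and 0.11. The region near Trav15-1-dv6-1 (chr14:53560201-53560500) was higher in both, with 4, 10 and 2 counts in control cTregs and 18, 18, 10 and 18 in Atg14-deficient cTregs, and 2, 0 and 2 counts in control eTregs against 2, 4, 11 and 18. The promoter of Trav13-1 (chr14:53544859-53545061) rose in cTregs by 1.64 ± 0.61 from 6, 6 and 4 counts to 14, 12, 14 and 17. The exception was the promoter of Trav6n-6 (chr14:53132501-53132717), with 8, 16 and 22 counts in control eTregs and 2, 3, 0 and 4 in Atg14-deficient eTregs (-2.34 ± 0.70, adjusted p = 0.37). Segments with a d or n after the family number, such as Trav6n-6, belong to duplicated blocks of near-identical sequence. Unlettered segments can have copies in these blocks, so the assignment of reads is uncertain for the variable segments named here in general. The promoter of Trav1, just ahead of the array, was also higher in Atg14-deficient eTregs (0.83 ± 0.38), but the call was lost without control eTreg replicate 3 (0.42) and without Atg14-deficient eTreg replicate 1 (0.83), 2 (0.80) or 4 (0.79).

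Beyond Trac, the first region toward Dad1 (chr14:54225044-54225438) passed the state threshold in Atg14-deficient Tregs and not in controls. Control cTregs had 16.6, 27.8 and 16.1 CPM and control eTregs 15.9, 26.2 and 16.9 CPM, which overlap. Atg14-deficient cTregs had 12.6, 10.1, 11.04 and 17.99 CPM and Atg14-deficient eTregs 33.0, 23.4, 25.4 and 27.7 CPM, which do not. Between genotypes the region was called lower in Atg14-deficient cTregs (-0.65 ± 0.26), a call lost without control cTreg replicate 2 (-0.34) or Atg14-deficient cTreg replicate 2 (-0.56) or 3 (-0.57), and in eTregs the change was 0.48 ± 0.25. The state change was -0.05 ± 0.27 in controls and 1.08 ± 0.24 in Atg14-deficient libraries (adjusted p = 0.00534), and the latter stayed past the threshold without each library. The difference between the changes was 1.13 ± 0.36 (adjusted p = 1), and its unadjusted p stayed below 0.05 without each of the 14 libraries. Over the stretch, 8 of 422 regions had an interaction, with a difference beyond 0.5 and an unadjusted p below 0.05 (background 3.05%), and none passed adjustment. The second region (chr14:54227230-54227863), where the alpha enhancer is known, was higher in level, at 63.9 ± 9.26 CPM (SD, n = 3) in control cTregs, 75.2 ± 10.5 (n = 4) in Atg14-deficient cTregs, 57.4 ± 9.59 (n = 3) in control eTregs and 74.0 ± 7.89 (n = 4) in Atg14-deficient eTregs. Its state changes were -0.16 ± 0.16 and -0.02 ± 0.14, and its genotype change in eTregs was 0.38 ± 0.15, under the fold cutoff. In the intron of Trac (chr14:54222183-54222764) the level was higher in eTregs, with 43.5, 55.8 and 36.1 CPM against 59.2, 76.6 and 60.2 CPM in controls (0.52 ± 0.17, adjusted p = 0.0622) and 51.2, 53.7, 40.8 and 57.2 CPM against 80.0, 64.4, 68.6 and 74.7 CPM in Atg14-deficient libraries (0.51 ± 0.14, adjusted p = 0.0233). The latter lies at the fold cutoff and fell below it with TMM (0.48) and loess offsets (0.50), and was lost without cTreg replicate 3 (adjusted p = 0.112), eTreg replicate 1 (adjusted p = 0.0785) or eTreg replicate 4 (adjusted p = 0.0602).

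Outside the receptor locus, the state region with the smallest p in controls lay 18285 bp from the start of the noncoding gene 4930538L07Rik, on the telomere side of Atg14 (chr14:47739049-47739377). Control cTregs had 9.53, 7.66 and 6.69 CPM and control eTregs 0.651, 1.57 and 1.80 CPM, and Atg14-deficient cTregs had 7.98, 4.67, 6.84 and 6.42 CPM against 3.30, 2.51, 2.38 and 2.05 CPM in Atg14-deficient eTregs. The states were apart in both genotypes (-2.48 ± 0.48, adjusted p = 0.00238 in controls; -1.33 ± 0.40, adjusted p = 0.0318 in Atg14-deficient libraries). The control call held without each library, and the other was lost without cTreg replicate 1 or 3 or eTreg replicate 3 or 4 (adjusted p = 0.0667 to 0.0895). Within an intron of Tspan14, a tetraspanin that guides the protease ADAM10, the region at chr14:40927045-40927405 had 25.2, 24.2 and 22.3 CPM in control cTregs and 11.1, 11.02 and 14.6 CPM in control eTregs (-0.95 ± 0.25, adjusted p = 0.0237). It had 23.5, 25.7, 38.6 and 28.3 CPM against 10.8, 17.6, 12.2 and 14.9 CPM in Atg14-deficient libraries (-1.09 ± 0.22, adjusted p = 0.00228), and the promoter of the gene was not called in either. The control call was lost without cTreg replicate 1 (adjusted p = 0.1), eTreg replicate 1 (adjusted p = 0.101) or eTreg replicate 2 (adjusted p = 0.0915). The region before Lgals3, which encodes galectin-3, had 22, 14 and 22 counts in control cTregs and 2, 1 and 6 in control eTregs (chr14:47366834-47367197; -3.03 ± 0.73, adjusted p = 0.013). That call was lost without control cTreg replicate 3 (adjusted p = 0.0739), eTreg replicate 1 (adjusted p = 0.0534) or eTreg replicate 2 (adjusted p = 0.0635).

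Of the regions higher in eTregs, the one with the smallest p lay in the coding exon of Ppp1r3e, a subunit that directs protein phosphatase 1 to glycogen (chr14:54876537-54877371). Atg14-deficient cTregs had 30.2, 28.0, 27.3 and 30.8 CPM and Atg14-deficient eTregs 51.5, 47.7, 57.2 and 50.9 CPM (0.84 ± 0.15, adjusted p = 0.000829). In controls the libraries were also apart, at 26.4, 33.0 and 25.0 against 35.8, 37.8 and 42.5 CPM, but the change of 0.45 ± 0.17 did not pass (adjusted p = 0.122), and the interaction was 0.38 ± 0.23 (adjusted p = 1). In Atg14-deficient libraries an intron of Slc7a7, a transporter of cationic amino acids, rose by 1.24 ± 0.29 (adjusted p = 0.00727), and the promoter of Pck2, the mitochondrial PEP carboxykinase, rose by 0.96 ± 0.24 (adjusted p = 0.00978; 0.0575 without cTreg replicate 3). The 4 regions higher in control eTregs were the promoters of Cgrrf1, a ubiquitin ligase (0.66 ± 0.19), Zfhx2, a homeobox factor (0.71 ± 0.21), and 4930572G02Rik (2.40 ± 0.66), and an intron of the granzyme gene Gzmf (1.67 ± 0.50). Each lost its call without control cTreg replicate 1 or 3 or any control eTreg replicate (adjusted p = 0.0646 to 0.22), and Gzmf also with the replicate block (adjusted p = 0.0519).

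By gene group, counts are set beside the shares over all tested regions, which were 4.59% higher and 1.77% lower in eTregs and 1.99% higher and 1.35% lower in cTregs, with medians of 0.06 and 0.03. The regions of Atg14 and its neighbours numbered 65, from 18 of 19 listed genes. Of the 59 tested, 3 were higher and 2 lower in eTregs and 3 higher and 2 lower in cTregs, with medians of -0.04 and -0.06. The lower members in both states were the inner promoter of Gmfb and the intron of Gch1, and other introns of Gch1 were among the higher ones. The promoter of Cdkn3, a cell-cycle phosphatase and a strong region of the list, was at 133 ± 12.3 CPM in control eTregs (SD, n = 3) and at 120 ± 7.28 CPM where Atg14 was deleted (n = 4; -0.15 ± 0.12). That of Fbxo34, the gene next to Atg14, had 96.0 ± 8.55 and 75.9 ± 10.3 CPM (-0.34 ± 0.13), under the fold cutoff. Of the 14 tested regions at the serine proteases (granzymes, chymase and cathepsin G), none was called between genotypes, the medians were 0.37 in eTregs and 0.12 in cTregs, and the Gzmf intron was the sole state call in controls. The immune signalling and antigen processing genes (39 tested) had 2 higher and 0 lower in eTregs, and 1 higher and 1 lower in cTregs, with medians of 0.10 and 0.01. The genes of chromatin, RNA and DNA maintenance (44 tested) had 3 higher and 1 lower in eTregs and none in cTregs, with medians of 0.07 and 0.00. The lower one was an intron of Mettl3, the enzyme that writes N6-methyladenosine (-1.67 ± 0.71), and its call was lost without control eTreg replicate 3 (-1.58) or Atg14-deficient eTreg replicate 1 (-1.50) or 2 (-1.35).
The secreted ribonucleases (16 tested) had 1 higher and 1 lower in eTregs and 0 higher and 3 lower in cTregs, with medians of -0.14 and 0.03. The olfactory receptors (5 tested) and the genes of other tissues (5 tested) had no call between genotypes or states, with medians of 0.27 and 0.03 in eTregs and -0.06 and -0.17 in cTregs. By position in genes, 12 of 144 tested intergenic regions were higher and 1 lower in eTregs (median 0.19), while of 141 tested promoters 5 were higher and 5 lower (median 0.08). In cTregs 55 of the 141 promoters were above 0 (median -0.08), against 85 of 144 intergenic regions (median 0.07).

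Sequence words were searched in the central 200 bases of each region on both strands and are given as shares. The AP-1 word TGANTCA was in 9.98% of the 461 regions and in 11.6% of all regions on chromosomes, and in 7.95% of the 151 promoter regions of the stretch and 4.17% of all promoter regions. The RUNX word TGTGGTT was in 9.33% against 10.2% of all regions. It was in 5 of the 25 promoter regions of variable segments, beside 6.62% of the promoter regions of the stretch and 3.28% of all promoter regions. The ETS word AGGAAGT was in 12.4% against 14.3%, the TCF/LEF word CTTTGAT in 2.60% against 3.83%, and the CRE word TGACGTCA in 0.434% against 0.884%. None of the 25 variable promoter regions held the CRE or the TCF/LEF word. The AP-1 word of the Pnp2 and Gmfb promoters and the CRE word of the second region past Trac, all shown in the sequences above, lie in these windows. A word match describes the sequence and is not a measure of binding.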

How the data were processed

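The authors trimmed and aligned the ATAC-seq reads, removed duplicates, corrected read positions for the transposase offset, retained fragments free of nucleosomes, ran MACS2 on every library to find peaks, then merged those shared by 50% or more of a genotype's replicates, and deposited raw counts of reads per merged region for 14 libraries. The submitters' processing notes name mm10 (GRCm38), whereas the methods name mm9; 0 of 67207 regions on chromosomes lay past a GRCm38 chromosome end, and GRCm38 was used. Counts were fitted in R 4.3.3 with edgeR 4.0.16 (robust quasi-likelihood, libraries scaled by total counts, 1 coefficient for each of 4 groups; 61366 of 67254 regions passed the filter on low counts), with DESeq2 1.42.0 as an alternative. The steps were tested on simulated data. Errors of log2 fold changes are standard errors.

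Genes and classes come from RefSeq on GRCm38; a region belongs to its nearest transcription start. The members and gene lists were chosen with earlier results of these data known. Named are the regions over Atg14, the regions of smallest p called in each direction of each comparison (in genotype comparisons with groups that do not overlap), those with the smallest interaction p, and the highest regions of each list and receptor part. Total counts per library were 2242983 to 5548189, the biological coefficient of variation was 25.6%, and the smallest two-sided exact permutation p with 3 against 4 libraries is 0.0571. The labels do not name the animals, so p-values measure the spread between these libraries. Deviations of same-numbered Atg14-deficient cTreg and eTreg libraries correlated in all 4 pairs (r = 0.119 to 0.243). The reported state results do not use this pairing and come from the fit without a block. In an alternative fit with the replicate number as a block within genotype, the count of state regions in Atg14-deficient libraries was 49, against 33 in the reported fit. Alternatives were other scalings, filters, cutoffs, tests, windows, replicate blocks and each library left out; the count of regions lower in both populations and the variable part median were added after the data were seen. Some marker genes and a sort marker are not reported here.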

Additional observations from a re-analysis of the deposited data

Results flagged for a closer look

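Among 212 groups of 4 libraries at named regions, 14 held a library far from the other 3, where chance gives about 1 in 20, or 10.6. In Atg14-deficient cTregs, replicate 1 had 12.6 CPM at the Gch1 intron that was called lower, against 21.2 to 23.0 CPM in the other libraries, so that the group's low mean there rested in part on it. The same replicate had 10.9 CPM at the exon of Gm52088 (others 8.68 to 8.99) and 2.52 CPM at the region before Trav16d-dv11 (others 5.06 to 5.26). Replicate 2 had 11.3 CPM at the region before Ang (others 4.62 to 5.26). Replicate 3 had 0.526 CPM at the Peli2 intron near Gm52144, where the others had 0, and 6.84 CPM at the promoter of Gm41153 (others 9.24 to 9.64). Replicate 4 had 14.1 CPM at the region near 4930538L07Rik that starts at 47740329 (others 20.6 to 21.0).

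In Atg14-deficient eTregs, replicate 1 had 0.599 CPM near Trdv5, where the others had 0. Replicate 2 had 5.86 CPM at the promoter of 4930572G02Rik (others 2.12 to 2.57) and 4.18 CPM before Trav16d-dv11 (others 0.529 to 1.03). Replicate 3 had 23.3 CPM at the region of Ear6 (others 7.19 to 8.99). Replicate 4 had 20.5 CPM at the promoter of Ap1g2 (others 25.1 to 25.2), 13.9 CPM at the region near Sdr39u1 that starts at 55918704 (others 5.02 to 5.82) and 5.14 CPM near Rnase13 (others 3.00 to 3.35).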

How the results depend on the processing

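None of the called effects among the 135 followed at named regions reversed under the alternatives run; the other regions were followed by their counts alone. Requiring at least 10 counts in every library left 191 regions tested. Of these, 14 had genotype calls in eTregs (37 in the reported fit), 8 in cTregs (26), 5 state calls in controls (16) and 20 in Atg14-deficient libraries (33). The backgrounds were 7.12%, 2.76%, 6.22% and 12.4%, against 6.36%, 3.34%, 5.3% and 9.81% in the reported fit. A window of 5 Mb, with 199 regions tested, gave 18, 13, 5 and 15 calls and 4 interactions (8), and a fold cutoff of 1 gave 16 in cTregs (background 1.94%). In controls the state count was 28 with the DESeq2 Wald test (background 6.82%) and 9 without the receptor locus. With the replicate number as a block across genotypes the genotype counts were 34 and 27 (background 5.69% and 3.46%) and the state counts 16 and 36 (6.14% and 10.6%). Same-numbered control libraries of the 2 states correlated at 0.0543 to 0.209, and all 6 control libraries correlated best with their own number. Whether they come from the same animals is not given by the labels. With a block within genotype the control state count was 35 (background 10.4%). Same-numbered libraries of different genotypes correlated at -0.217 to 0.0914. Without 1 library the counts were 29 to 42, 22 to 32, 3 to 25 and 11 to 42, and the interactions 5 to 14. The backgrounds were 4.68% to 7.81%, 3.02% to 4.32%, 1.75% to 5.92% and 4.62% to 12.1%, and 2.67% to 4.05% for the interactions. The interactions were 13 without Atg14-deficient eTreg replicate 2, 14 without control cTreg replicate 2 or control eTreg replicate 2 and 5 without control eTreg replicate 3.

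The median genotype difference in eTregs (0.0952) was 0.0429 with TMM, 0.0552 with DESeq2's size factors, 0.0395 with loess offsets, 0.0401 with at least 10 counts, 0.0515 with the DESeq2 Wald test, -0.0415 within 5 Mb, 0.0564 without the receptor locus and 0.0532 to 0.104 without 1 library. In cTregs (0.00781) it was -0.0166 with TMM, -0.0153 with loess offsets, -0.0729 within 5 Mb and -0.0129 to 0.034 without 1 library. The log2 ratio of the stretch's share of counts between genotypes in eTregs (0.0196) was 0.0426 over chromosome 14 counts, -0.0700 within 5 Mb, 0.00289 without the receptor locus and 0.00714 (without control eTreg replicate 2) to 0.0276 without 1 library. In cTregs (-0.0362) it was -0.0171, -0.0745, -0.0531 and -0.0554 (without control cTreg replicate 2) to -0.0124 (without replicate 3). Between states in controls (-0.0595) it was 0.000689, -0.11, -0.0414 and -0.0787 to -0.0357 (without control cTreg replicate 3). In Atg14-deficient libraries (-0.00364) it was 0.0604, -0.106, 0.0146 and -0.0131 to 0.00674, so its sign is not settled. The cause of these moves was not tested. Of 87 called effects at named regions, 57 lost the call in at least 1 alternative, in 196 of 1128 values, 184 of them without 1 library and 12 under another scaling, test or block. Depth limits the low regions: many named regions among the variable segments had fewer than 20 counts per library.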
